A study of Homo sapiens with 2 samples.

Results

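Exons that lie between very long introns were examined in a comparison of splicing in HEK293T cells, a human embryonic kidney line that carries the SV40 large T antigen. One library of polyadenylated RNA came from control cells and 1 from cells kept for 6 h in 300 µg/mL of amiloride, a diuretic that also alters splicing in cultured cells. The exons were the skipped-exon events of 51 to 300 bases with more than 10000 bases to the flanking exon on each side. They are called long-flanked exons here. This rule took 9168 of 113456 events, which describe 5606 of 67154 distinct exons (8.35%) in 2774 genes. An exon could appear in several events with different flanking exons, and 3452 of the 5606 had 1 event, 2154 had more, and the most was 13. The exons were spread over 23 chromosomes.

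Neither condition was replicated, so the values compare 1 library with another and have no replicate error. The treated library is not identified in the tables, where both carry only a number. A positive inclusion level difference means more inclusion in library 1 than in library 2, and the direction after amiloride cannot be told. An event was called when its deposited false discovery rate (FDR) was under 0.1, and an exon when any of its events in the set counted was called. For long-flanked exons only long-flanked events counted, and for the whole table all events of an exon. Reads per library were not used, so the depth behind each difference is unknown, and expression markers of HEK293T cells were not checked. Reads on the exon body were credited to inclusion as well as junction reads, since in 9168 of 9168 events the inclusion form exceeded the skipping form by the exon length. Shares are followed by 95% Wilson intervals, which cover counting error only.

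Splicing of a short exon in a long intron is thought to begin across the exon. U1 snRNP binds the splice site at the end of the exon (5'SS), and U2AF binds the pyrimidine tract and AG of the site before it (3'SS), and factors at both ends help each other. Exons of this kind are thought to depend on their own sites and enhancers, and when one is missed the flanking exons are joined over the whole stretch. Long introns are common in genes of neuronal adhesion, signalling and transcription and near the start of genes.

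The reference sequences of 5 exons show the kinds of exon that the results turn on: the lowest FDR and largest difference among those at the lowest FDR (TNRC6A), a cassette near the start of a gene (BTRC), a called exon in some of the longest surroundings (PCDH9), an exon at the negative end of the scale (CCDC150), and the exon whose shorter stretch was longest (IMMP2L). The exon is in capitals, with 20 bases of the stretch before it and 10 after it in lower case. The exons were read from GRCh37 on the strand of the gene, at chr16:24762047-24762134 (plus), chr10:103190102-103190209 (plus), chr13:67477636-67477737 (minus), chr2:197523516-197523584 (plus) and chr7:110603556-110603621 (minus), and lay wholly in coding sequence.
TNRC6A: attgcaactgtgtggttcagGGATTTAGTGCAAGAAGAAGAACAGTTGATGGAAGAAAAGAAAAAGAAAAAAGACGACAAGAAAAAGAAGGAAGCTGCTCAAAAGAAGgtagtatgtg
BTRC: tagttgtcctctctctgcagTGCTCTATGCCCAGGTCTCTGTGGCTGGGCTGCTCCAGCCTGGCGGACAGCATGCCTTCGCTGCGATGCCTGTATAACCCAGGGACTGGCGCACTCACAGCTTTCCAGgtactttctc
PCDH9: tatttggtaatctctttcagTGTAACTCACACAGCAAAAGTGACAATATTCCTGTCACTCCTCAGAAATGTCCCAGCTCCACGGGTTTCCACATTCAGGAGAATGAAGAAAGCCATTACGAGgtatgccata
CCDC150: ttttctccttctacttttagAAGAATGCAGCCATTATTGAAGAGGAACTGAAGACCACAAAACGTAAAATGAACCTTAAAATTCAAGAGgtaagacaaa
IMMP2L: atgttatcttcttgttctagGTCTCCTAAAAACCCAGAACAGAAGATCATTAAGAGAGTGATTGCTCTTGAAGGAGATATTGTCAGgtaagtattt

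The stretch to the upstream exon, in the direction of transcription, had a median of 26910 bases and reached 524219. Downstream, the median was 21838.5 bases and the longest 523672. The upstream stretch was the longer one in 58.3% of events. The shorter of both had a median of 16981 bases. A stretch was not always a single annotated intron: in 41.1% of these events both stretches were introns of GENCODE, against 58.1% of other events of 51 to 300 bases. The junction that skips the exon was annotated in 15.6% of the events. The exons themselves were well annotated, with an AG before and a GT after 99.3% of them, a known 5'SS in 99.7% and a known 3'SS in 99.6%. Of the 5606 exons, 5255 were part of a canonical transcript, the representative transcript of a gene, and 86.1% lay wholly in coding sequence. An exon counted as wholly coding if it was so in any annotated transcript, canonical or not. Partly coding, untranslated and noncoding followed in that order.

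At FDR under 0.1, 1520 of the 5606 exons were called, or 27.1% (26.0 to 28.3), in 1067 genes. The background was 35.8% of all exons in the table, counted over all their events, so the share was lower but was not counted alike. A further 357 of the long-flanked exons were called only in another event. Counted with these, as the background is, the share would lie closer to 35.8% than to 27.1%. Most of this gap by exon therefore lies in the counting. Of other events with exons of 51 to 300 bases, 35.7% (35.4 to 36.1) of exons were called. Counted by event, 1874 were called, or 20.4% (19.6 to 21.3), against 27.5% in the table. Exons with more events had more chances of a call. Of exons with 1 event in the set 18.3% were called, against 35.4% of those with 2 and 51.1% of those with 3 or more. Counted by event the shares were 18.3%, 21.1% and 22.2%, and what else differs between these exons was not tested. Among exons with exactly 1 event in the whole table, 16.3% (14.8 to 17.9) of the long-flanked exons and 25.7% (25.3 to 26.2) of other exons of 51 to 300 bases were called.

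The share of called events was lowest when both stretches were long. It was 24.1% (23.4 to 24.8) when only the upstream stretch passed 10000 bases and 26.4% (25.6 to 27.4) when only the downstream stretch did. With both stretches of 1000 to 10000 bases it was 28.2% (27.7 to 28.6). With both under 1000 bases it was 28.5% (27.7 to 29.3), and with 1 under 1000 and the other of 1000 to 10000 it was 30.3% (29.7 to 30.8). The interval for events with both stretches over 10000 bases did not overlap any of these, but events of the same exon share reads. Counted by exon, 27.1% (26.0 to 28.3) were called with both stretches over 10000 bases. With only the upstream stretch over 10000 it was 28.7% (27.8 to 29.7), an interval that overlaps. The other settings ran from 31.1% to 34.2% of exons. Within the long-flanked events the share fell from 21.8% (20.8 to 22.9) of 5566 events with a shorter stretch up to 20000 bases to 19.3% (17.9 to 20.8) of 2960 up to 50000. It was 14.4% (11.7 to 17.6) of 543 up to 100000 bases, and above that 9 of 99 events were called, or 9.09% (4.86 to 16.4), an interval that overlaps the one before it. At the boundary itself, 19.6% of 521 events whose shorter stretch was up to 500 bases over the limit of 10000 were called, and 27.1% of 553 events up to 500 bases below it. No intervals were computed for these narrow windows, and 19.6% is below the 21.8% of the whole bin up to 20000 bases.

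**Figure D1:**
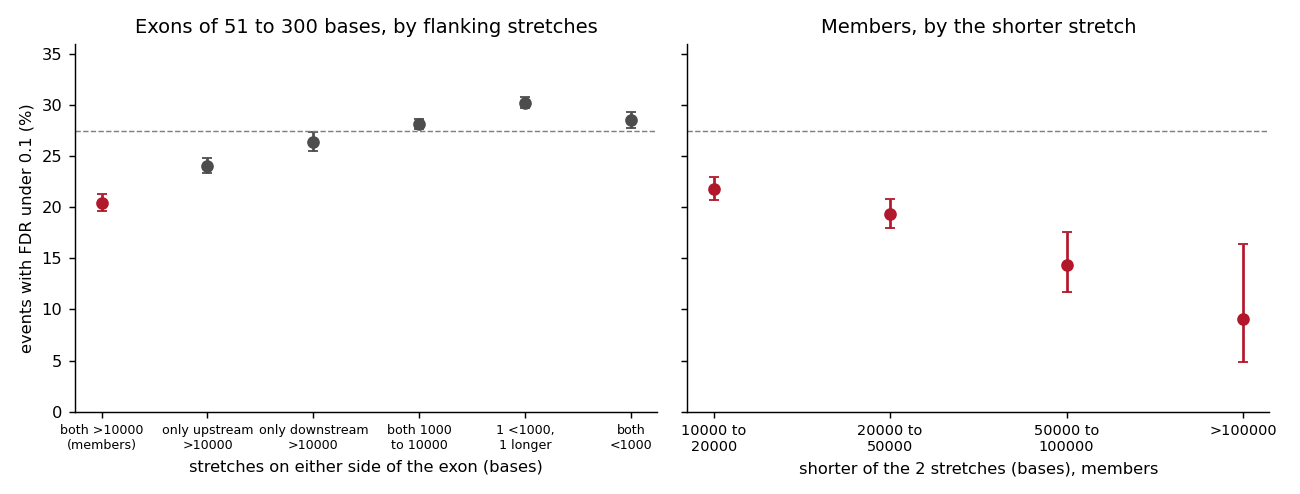
Share of events with FDR under 0.1 (y axis, %) by the stretches beside the exon (left, all events with exons of 51 to 300 bases) and by the shorter stretch within the long-flanked events (right). Bars are 95% Wilson intervals and the dashed line is the 27.5% of the whole table. The long-flanked events (red) lie at 20.4%, and the right panel runs from 21.8% down to 9.09%.

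Most calls had the same sign, as elsewhere in the table. Of the called events 1761 were positive and 113 negative, so that 94.0% (92.8 to 95) were positive, against 96.0% (95.8 to 96.2) of called events in the table. A positive call was found for 1423 exons, or 25.4%, against 34.3% of all exons. A negative call was found for 107 exons, or 1.91%, against 1.74% of all exons. On this count negative calls were about as frequent as in the background while positive calls were rarer. The shares of all exons count every event of an exon, and those of the long-flanked exons only long-flanked events. The called exons had positive calls alone in 1413 cases, negative calls alone in 97 and both in 10. Where 2 or more events of an exon were called, 269 of 279 exons had a single sign. Among events that were not called, 73.8% were positive here and 75% in the table.

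Differences in called events were larger than in the table. Their median size was 0.136, with quartiles of 0.069 and 0.266, against 0.108 with quartiles of 0.052 and 0.227 in all called events. A size of at least 0.1 was reached by 60.9% of the called events, against 52.8% in the table, and 169 events, or 9.02% against 6.42%, reached 0.5. The smallest called difference had a size of 0.008. Events that were not called also had larger differences, with a median size of 0.027 against 0.012. The median size in called events was 0.084 with both stretches under 1000 bases, 0.107 with both of 1000 to 10000, 0.118 with only the upstream and 0.125 with only the downstream one over 10000. Within the long-flanked events it had no such order, at 0.139, 0.126, 0.182 and 0.103 from the lowest to the highest bin of the shorter stretch, the last with 9 called events. Negative calls were the larger ones, with a median size of 0.211 for negative and 0.132 for positive events, against 0.119 and 0.107 in the table. A difference of -1 was found in 8 called events and of 1 in 1 event.

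**Figure D2:**
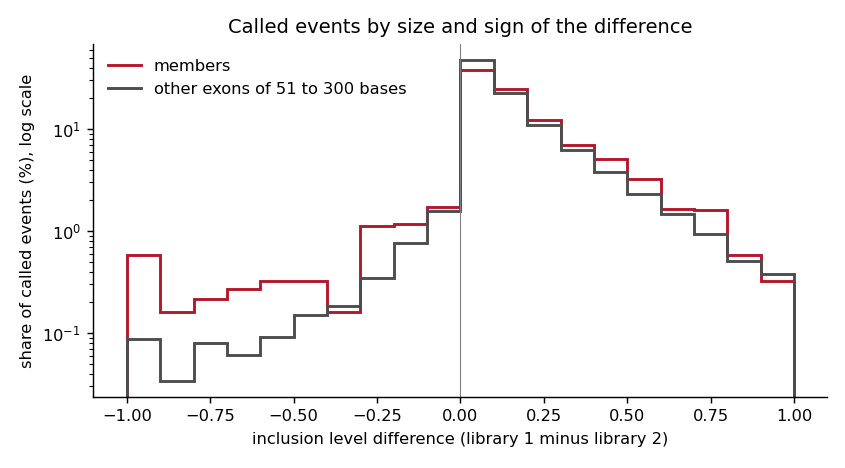
Share of called events (y axis, %, log scale) by inclusion level difference (x axis, library 1 minus library 2, steps of 0.1) for long-flanked events (red) and other events with exons of 51 to 300 bases (grey). The first bin on the left, differences from -1 to -0.9, holds 0.587% of called long-flanked events and 0.0868% of the others.

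The same exon could be judged in both kinds of surroundings when it also had an event with a nearer flanking exon. This was the case for 1892 of the exons. Both kinds of event were called for 261 of them, the long-flanked event alone for 308, the other event alone for 357 and neither for 966. In these exons 30.1% were called in a long-flanked event and 32.7% in another event, a smaller gap than between the long-flanked exons and the whole table. Both kinds share the reads on the exon body.

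Some events use flanking exons that no annotated intron joins to the exon. With both stretches annotated introns, 24.4% (23.1 to 25.8) of 3768 events were called, against 30.3% (29.9 to 30.7) of other events of that kind. With 1 annotated stretch the shares were 19.7% and 26.4%. With neither annotated they were 12.1% (10.5 to 13.9) of 1454 events and 15.5% (14.6 to 16.4). The last kind had the largest differences, with a median size of 0.384 in 176 called events, and 82.4% (76.1 to 87.3) of these calls were positive. Other events of that kind had a median of 0.322 and 90.2% positive calls. In events with both stretches annotated the median was 0.118 and 95.2% (93.6 to 96.4) were positive, against 0.096 and 95.9% in other events of that kind. An annotated skipping junction went with more calls: 32.7% (30.4 to 35.2) of 1433 such events were called, and 18.2% (17.3 to 19.0) of the other 7735. The same held outside the set, with 39.6% and 25.6% of other events of 51 to 300 bases.

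The splice sites of the long-flanked exons scored higher than those of other exons. The score sums log2 ratios of base frequencies at annotated human sites over equal frequencies, over 9 bases for the 5'SS and 23 for the 3'SS. The median 5'SS score was 8.62, against 8.01 for other exons of 51 to 300 bases and 7.67 for those with both stretches under 1000 bases. At the 3'SS the medians were 10.69, 8.94 and 7.64. An A at the third base of the intron stood in 75.1%, 60.3% and 41.9% of these groups, and T made up 56.4%, 47.2% and 37% of the tract from position -20 to -5. The total share of pyrimidines there was closer, at 78.0%, 75% and 74.7%. The exons also lay in AT-rich surroundings. Median GC content was 45.7% in the exon, against 49.4% and 57.4%. In the 100 bases before it the medians were 34%, 42% and 58%, and in the 100 after it 36%, 44% and 58%. Base composition of the region enters the scores, and its part was not tested.

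Called exons had somewhat weaker sites and were shorter than those not called. Their median scores at the 5'SS were 8.34 and 8.64, and those of the 3'SS 10.42 and 10.80. Other exons of 51 to 300 bases had the same order, with 7.85 and 8.09 at the 5'SS and 8.78 and 9.04 at the 3'SS. From the lowest to the highest quartile of the 5'SS score the share called went from 31.2% (28.8 to 33.6) to 24.9% (22.7 to 27.2), and for the 3'SS score from 31.2% (28.8 to 33.6) to 23.8% (21.6 to 26.0). GC content of the exon showed no such order, with 29.2%, 26.3%, 25.9% and 27.1% called from the lowest to the highest quartile. The median length was 105 bases in called exons and 122 in those not called, and 105 and 123 among other exons of 51 to 300 bases. By length, 34.8% (32.7 to 37) of exons of 51 to under 100 bases were called, 25.2% (23.4 to 27.1) of 100 to under 150, 22.3% (19.9 to 24.8) of 150 to under 200 and 14.8% (11.9 to 18.3) of 200 to 300. Exons of these lengths in other events, among them the 1892 long-flanked exons that had both kinds, stood at 44.4%, 35.1%, 26.6% and 20.2%. These shares lay above those in long-flanked events in each class, though in the last the intervals, 11.9 to 18.3 and 19.1 to 21.4, lay close. In exons of 200 to 300 bases 82.1% (72.6 to 88.9) of called events were positive, and in those under 100 bases 95.4% (93.8 to 96.6). For other events with exons of these lengths it was 80.2% and 98.4%.

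**Figure D3:**
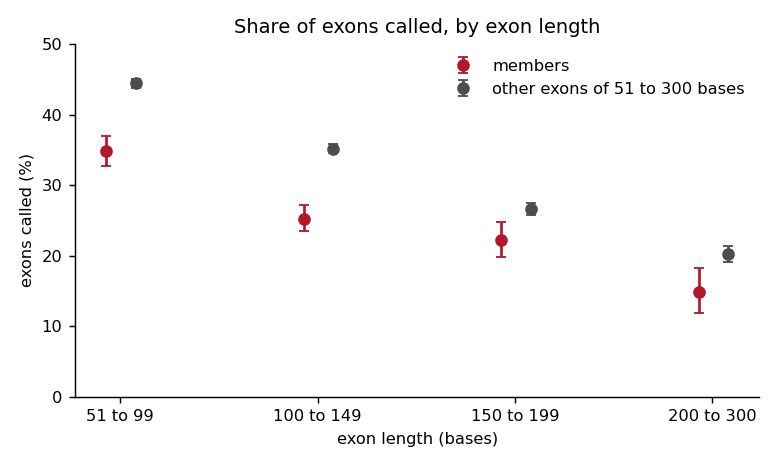
Share of exons called (y axis, %) by exon length (x axis, bases) in long-flanked events (red) and in other events with exons of 51 to 300 bases (grey), with 95% Wilson intervals. Both fall with length, from 34.8% to 14.8% and from 44.4% to 20.2%. The grey set also holds the 1892 long-flanked exons that had another event.

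The exons sat early in their genes. Of the 5255 exons in a canonical transcript, 20.5% were its second exon, against 9.10% among other exons of 51 to 300 bases. Exons 2 to 5 made up 59.9% against 36.4%. Position made little difference to the share called, which was 27.9% (25.3 to 30.6) for second exons and 26.9% (24.0 to 30.1) for exon 11 and later. Exons of the 5' untranslated region were called in 94 of 264 cases or 35.6% (30.1 to 41.6), near the 35.8% of all exons over all their events. Their called differences had a median size of 0.196. In other events, 5' untranslated exons of 51 to 300 bases, which may include the same exons, stood at 38.8% (36.1 to 41.6) with a median size of 0.185. Exons wholly in coding sequence were called in 27.4% (26.1 to 28.6), those partly coding in 21.6% (17.6 to 26.2), and those of noncoding transcripts in 16.9% (11.5 to 24.1). Length was a multiple of 3 in 37.9% of the exons and 38.8% of other exons. Exons that keep the frame were called in 25.8% (24.0 to 27.7) and exons that shift it in 27.9% (26.4 to 29.4), intervals that overlap.

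The FDR was listed as 0, below the precision of the table, for 113 of the exons in 105 genes. The 10 of these with the largest differences, 1 per gene, had positive differences of 0.599 to 0.760. They are given with the event of lowest FDR, and each other event of the same exon shares its body reads. The leading exon, 88 bases long, was exon 3 of 25 of TNRC6A, which binds Argonaute proteins in silencing by microRNAs. Its difference was 0.760 with stretches of 20425 and 26119 bases, and its other events gave 0.567, 0.211 and 0.000, of which the first was called with an FDR of 1.2e-05. Its sites scored 5.71 and 3.31, both under the first quartile of the long-flanked exons (6.99 and 8.69).

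The Groucho family of transcriptional corepressors, which are recruited by factors of Wnt, Notch and other pathways, appeared with different exons of both TLE1 and TLE4. In TLE1 a 105-base exon at chr9:84267099-84267203 differed by 0.700, and by 0.347 with a flanking exon farther downstream (FDR of 2.0e-06). An exon with exactly these ends is not part of a canonical transcript. In TLE4 the 63-base exon 5 of 20 at chr9:82227571-82227633 had 10 events, 8 of them called, with differences from 0.073 to 0.693. The value of lowest FDR was 0.650, and the largest, 0.693, had an FDR of 0.712 and was not called, so size and call went apart within this exon. The site sequences of both exons are shown because they differ while the differences of lowest FDR, 0.700 and 0.650, are alike. The AG and GT are in capitals. The 5'SS of TLE1 scored 3.81 and that of TLE4 10.38.
TLE1 3'SS: tcttctccttgttttcaaAGcat
TLE1 5'SS: acaGTgtgt
TLE4 3'SS: ctttcccttattttttgcAGgca
TLE4 5'SS: gagGTaagg

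The other exons came from genes of varied function. In SPRED2, an inhibitor of Ras to ERK signalling, exon 4 of 6 at chr2:65559121-65559185 differed by 0.686, and its other event by 0.336 without a call (FDR of 0.474). In SLC25A12, the aspartate and glutamate carrier of the inner mitochondrial membrane, exon 10 of 18 at chr2:172671631-172671712 differed by 0.682 in its single event. WDR37, a WD repeat protein, had 3 called events of exon 11 of 14 at chr10:1151066-1151207, with 0.645, 0.184 and 0.091. BTRC encodes an F-box protein that marks beta-catenin and IkB for degradation. Its exon 2 of 15 keeps the frame, and it differed by 0.636 and 0.483 in called events but by 0.060 in the event whose skipping junction is annotated (FDR of 0.408).

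PRDM6, a PR domain repressor, differed by 0.622 at exon 4 of 8 (chr5:122491578-122491705), with an annotated skipping junction. FIRRE, a long noncoding RNA of the X chromosome, differed by 0.609 at chrX:130939000-130939065. It contains local repeats, and reads shared between repeats would make its value uncertain. GPATCH8, a G-patch protein, closed the group with 0.599 at exon 3 of 8 (chr17:42541840-42541912), and its further called events gave 0.151 and 0.143. Size differed between flanking exons: the lowest of the events of TNRC6A was at 0.000, and those of WDR37, TLE4 and BTRC were under 0.1.

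At the other end, the 5 most negative called exons, 1 per gene and ordered by FDR, were all at -1, which is the limit of the scale. CCDC150, a coiled-coil protein, was at -1 for exon 5 of 28 with an FDR of 8.8e-05. CLASP2, which stabilises microtubule plus ends, was at -1 for exon 6 of 39 (chr3:33725851-33725948, FDR of 0.018). NDUFA10, a subunit of respiratory complex I, had -1 and -0.884 in called events of exon 7 of 10 (chr2:240946733-240946787, FDR of 0.0263 and 0.0287) and -0.709 in an event that was not called. LEF1, the transcription factor that carries Wnt signals with beta-catenin, was at -1 for exon 5 of 12 (chr4:109004512-109004602, FDR of 0.0471). MAD1L1, a protein of the spindle checkpoint, was at -1 and -0.491 for exon 15 of 19 (chr7:2020088-2020176, FDR of 0.0632 and 0.0725). The same MAD1L1 exon with a nearer upstream flank differed by -0.017 and was not called. In the events shown for CCDC150, CLASP2 and MAD1L1 neither stretch was an annotated intron, in that of LEF1 it was 1 of both, and in that of NDUFA10 both were. Their 5'SS scores ran from 9.11 to 11.21, above the median of 8.62, and their 3'SS scores from 8.20 for CLASP2, under the first quartile of 8.69, to 13.66 for NDUFA10.

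**Figure D4:**
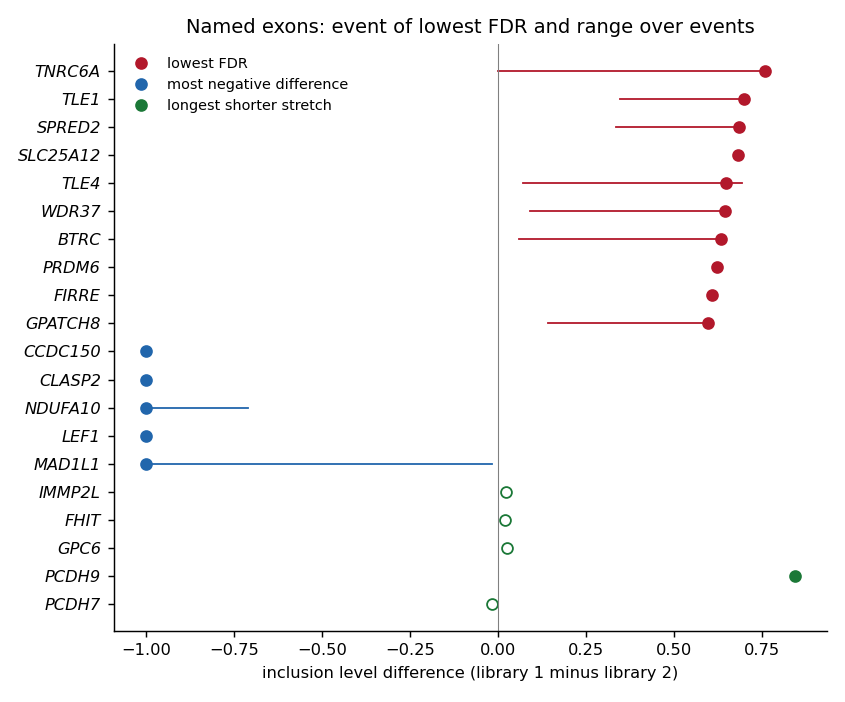
Inclusion level difference (x axis, library 1 minus library 2) of the exons of lowest FDR (red), of most negative difference (blue) and of longest shorter stretch (green), 1 exon per gene (y axis). Points are the event of lowest FDR, filled when called and open when not, and lines span the differences of all long-flanked events of the exon. Red points lie between 0.599 and 0.760 and blue points at -1, and of the green points PCDH9 alone is filled.

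The exons most isolated in the genome were taken whatever their FDR. Of the 5 genes whose shorter stretch was longest, 4 had differences of at most 0.027 in size that were not called. Small sizes were not a feature of all such events, since the 99 with a shorter stretch over 100000 bases had a median size of 0.041 where not called, against 0.027 for all long-flanked events. Exon 4 of 6 of IMMP2L, a subunit of the inner membrane peptidase of mitochondria, has 523672 bases before it and 299778 after it, and differed by 0.022 (FDR of 0.945). Its 5'SS scored 12.65, equal to the highest score in the set. A 5' untranslated exon of FHIT, the diadenosine triphosphate hydrolase at a common fragile site, differed by 0.020 (FDR of 0.918) between stretches of 378585 and 284900 bases. In GPC6, a glypican, exon 2 of 9 (chr13:94197516-94197674) differed by 0.027 (FDR of 0.753). In PCDH7, a protocadherin, exon 2 of 3 (chr4:30921775-30921991) differed by -0.017 (FDR of 0.701). The call was for another protocadherin, PCDH9, whose exon 3 of 5 differed by 0.845 with an FDR of 0.028. It keeps the frame, has an annotated skipping junction, and lies between 321799 and 272092 bases. The splice sites of IMMP2L and PCDH9, an exon without a call and one with a call, are set side by side with AG and GT in capitals. The 5'SS scored 12.65 and 7.70, and the 3'SS 11.95 and 7.95. Site scores did not separate call from no call at the 5'SS: GPC6 and PCDH7, not called, scored 7.62 and 6.70, and FHIT 10.20. At the 3'SS these exons scored 10.37, 10.54 and 9.30.
IMMP2L 3'SS: atgttatcttcttgttctAGgtc
IMMP2L 5'SS: cagGTaagt
PCDH9 3'SS: tatttggtaatctctttcAGtgt
PCDH9 5'SS: gagGTatgc

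Many genes held several such exons. A single one was found in 1427 genes and 5 or more in 187 genes. The latter held 1159 of the exons, of which 352 were called, or 30.4%, against 27.1% of all long-flanked exons. Over all events of an exon, it was 35.8% of the table. In 156 of the 187 genes some exons were called and others not, in 30 none was called at FDR under 0.1, and in 1 every exon was. That gene, named after its values were seen, is BCL2L13, a mitochondrial relative of BCL2, with 5 of 5 exons called and differences from 0.050 to 0.460 in the events of lowest FDR. By contrast, 0 of 8 exons were called in CACNA2D3, a calcium channel subunit, and 0 of 7 in CDK14, a cyclin-dependent kinase. TTC7B (0 of 9) and DYM (0 of 8) had no call either, with differences from -0.502 to 0.395 and from -0.668 to 0.019. These genes were also picked after their values were seen.

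Most exons of this kind were found in PTK2, the focal adhesion kinase, with 15. Of these 8 were called, and their events of lowest FDR had differences of 0.033 to 0.227. The untranslated exon 2 of 36 differed by 0.227 (FDR of 9.2e-10). Exon 30 had 3 called events with differences from 0.153 to 0.296, the largest called value of the gene. Exon 26 differed by 0.172 (FDR listed as 0) and exon 8 by 0.165 (FDR of 5.2e-06). The neighbouring exons 3, 5 and 6 differed by -0.012, -0.010 and 0.031 and were not called, while exon 4 between them differed by 0.156 (FDR of 2.0e-05). Larger values without a call also occurred: exon 32 differed by 0.650 with an FDR of 0.778, and exon 12 by 0.341 with 0.347. Another event of exon 6 reached 0.766, also without a call. Called and uncalled exons were thus mixed along the gene.

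GPHN and MAD1L1 followed with 10 exons each. RPTOR, SDCCAG8 and STAG1 had as many, and the first in the order of symbols were taken. GPHN, or gephyrin, anchors inhibitory receptors at synapses and makes the molybdenum cofactor. Of its exons 3 were called: exon 3 at 0.156 (FDR of 9.6e-14), exon 12 at 0.103 (FDR of 0.00914) and exon 13 at 0.069 (FDR of 0.0503). The other 7 ranged from -0.023 to 0.037. In MAD1L1, 4 were called. Exon 11 differed by 0.151 (FDR of 0.00155), exon 14 by 0.045 (FDR of 0.0538) and exon 16 by 0.035 (FDR of 0.00957), besides exon 15 at the negative limit. The other 6 ranged from -0.010 to 0.061.

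The genes were then followed by what their products do, in 13 lists. Calls are set against the 27.1% of the long-flanked exons, counted alike, and the 35.8% of all exons, which counts all events of an exon. The intervals of the smaller lists are wide. A named exon is given by its event of lowest FDR alone. Its other events could differ in size or sign, as in EPHA4 (-0.022, not called), or be called too, as in NRXN3 (0.394). Genes at the cell surface came first. Among synaptic and neuronal adhesion genes 6 of 16 exons were called (37.5%, 18.5 to 61.4), 6 positive and 0 negative, with a median difference of 0.460. NRXN3, a presynaptic neurexin, differed by 0.516 (FDR of 5.9e-13) beside PCDH9. Among axon guidance genes 5 of 21 were called (23.8%, 10.6 to 45.1), all positive, among them EPHA4, an ephrin receptor, at 0.167 and SEMA6A, a transmembrane semaphorin, at 0.168. Among receptor protein tyrosine phosphatases 4 of 15 were called (26.7%, 10.9 to 52.0), all positive, with PTPRG at 0.145 and PTPRA at 0.050. Of ion channel exons 6 of 34 were called (17.6%, 8.35 to 33.5), all positive. They included ANO6, a calcium-activated scramblase and channel, at 0.404 for exon 2, and GRID1, a glutamate receptor of the delta type, at 0.425.

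Next came genes that act beneath the membrane and in signalling. Membrane skeleton and cytoskeletal linker genes had 21 of 108 exons called (19.4%, 13.1 to 27.9), 19 positive and 2 negative. SNTB2, a syntrophin of the dystrophin complex, differed by 0.139, and exon 7 of CLASP2 by 0.074, next to exon 6 at -1. Polarity and membrane scaffold genes had 7 of 40 called (17.5%, 8.75 to 31.9), 6 positive and 1 negative, with DLG1 at 0.150 and PARD3 at 0.235. For small GTPase regulators it was 27 of 101 (26.7%, 19.1 to 36.1), 25 positive and 2 negative, led by RASA2, a GTPase activator of Ras, at 0.412 and RAPGEF6, an exchange factor of Rap, at 0.513. Protein kinases had 44 of 197 called (22.3%, 17.1 to 28.6), 43 positive and 1 negative, with DYRK1A at 0.414 for exon 2 and GSK3B, a kinase of glycogen synthase and beta-catenin, at 0.373 for exon 10 of 11.

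The last lists covered protein turnover and the nucleus. Ubiquitin ligase and protease genes had 39 of 109 exons called (35.8%, 27.4 to 45.1), 38 positive and 1 negative. Their leading exons were those of BTRC and USP6NL, at 0.422, although USP6NL encodes a GTPase activator of Rab5 and no ubiquitin protease. Its called exon is among the 39, and the share without it was not computed. Developmental transcription factors had 45 of 149 called (30.2%, 23.4 to 38.0), 41 positive and 4 negative. MEIS1, a homeobox protein, differed by 0.552 at exon 8 of 13, and MEF2A, a MADS box factor, by 0.509 at an untranslated exon 2. Chromatin regulators had 36 of 146 called (24.7%, 18.4 to 32.2), 35 positive and 1 negative. They were led by core subunits of the Polycomb complex that methylates histone H3, SUZ12 at 0.325 and EZH2 at 0.232. The other long-flanked event of this EZH2 exon differed by -0.137 and was not called. SUZ12 has a near-identical pseudogene copy, and reads split with it would make its value uncertain. Splicing regulators had 9 of 32 called (28.1%, 15.6 to 45.4), 8 positive and 1 negative, among them QKI, which regulates splicing and circular RNA formation, at 0.071 and RBM6 at 0.238. The list of very large genes of common fragile sites, which shares 15 symbols with other lists, had 18 of 85 called (21.2%, 13.8 to 31.0), 17 positive and 1 negative. FOXP1, a forkhead factor, differed by 0.199 at exon 13 of 21, and PTPRG came second.

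**Figure D5:**
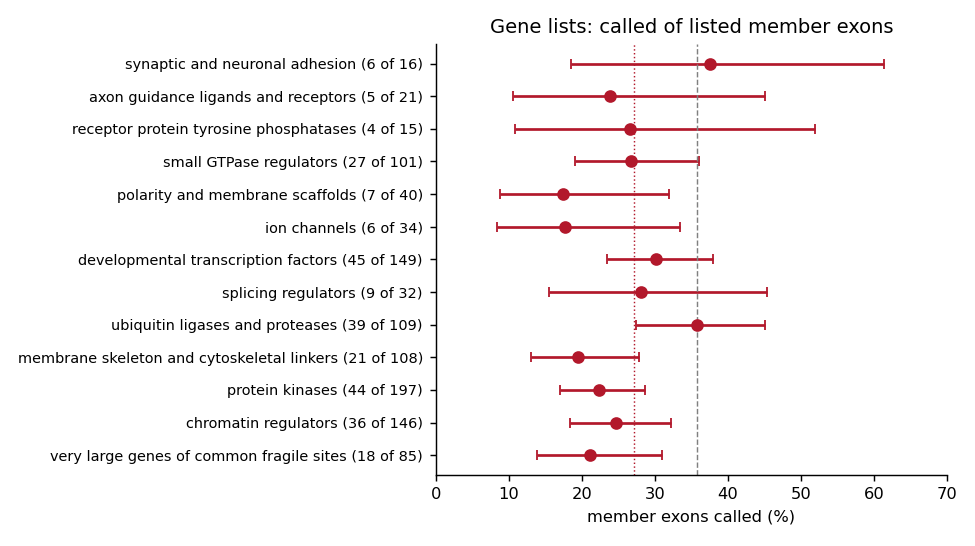
Share of long-flanked exons called (x axis, %) in each gene list (y axis, with called and listed exons in parentheses), with 95% Wilson intervals. The dotted line is the 27.1% of all long-flanked exons and the dashed line the 35.8% of the whole table, which counts all events of an exon. Points run from 17.5% to 37.5%, and 12 of 13 intervals cover the dotted line. The other, of ubiquitin ligase and protease genes, starts at 27.4% in a list that counts USP6NL, which encodes no ubiquitin protease.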

How the data were processed

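The authors sequenced 126-base paired reads, and the submitters' processing notes name STAR 2.5.1 and hg19. They ran rMATS (version not given in the sources used here) on 1 control and 1 amiloride library. They deposited 5 tables, of which the skipped-exon table was used and 4 were not analysed. Event coordinates, effective lengths of both forms (the skipping form was 125 bases), the FDR and the inclusion level difference, a score between -1 and 1, were taken as the authors deposited them. These last columns are the authors' own comparison. Its 6 per-library columns of counts and inclusion levels were not used, since the libraries are numbered without a condition, and p-values as deposited were not used.

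Events were grouped into exons by position. Each exon was shown by its event of lowest FDR. Exons whose events carried 2 symbols, 10 of the set, kept the first. Stretches were put in the direction of transcription. Annotation was GENCODE release 44 lifted to GRCh37. Splice site scores used base frequencies (pseudocount of 0.5) at 299415 annotated sites with GT and 298794 with AG, and were tested on simulated sites. Medians and shares were computed with pyfaidx 0.9.0.4, SciPy 1.17.1, pandas 2.3.3 and NumPy 2.4.6 under Python 3.11.15. No p-value was made across exons, which are not replicates.

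The exons and gene lists were chosen with earlier results of these data known. Named were the 10 exons of lowest FDR (ties by size), the 5 most negative called, the 5 with the longest shorter stretch (each 1 per gene), the 3 genes with most exons, and 2 called exons of lowest FDR per list. Alternatives were stricter calls, other stretch lengths, exons in 1 event, AG and GT sites and annotated stretches.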

Additional observations from a re-analysis of the deposited data

How the results depend on the processing

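With the main settings 1520 exons were called (27.1%), 94.0% of called events were positive and the median size was 0.136, with binomial bounds of 0.127 and 0.144. Limiting the set to exons between AG and GT moved none of these values beyond its interval. At FDR under 0.05, 23% were called (32.3% of all exons), 95.3% of events were positive and the median was 0.146. At FDR under 0.01, 984 exons were called (17.6%, against 26.9%), with 97.4% positive and a median of 0.156. Requiring also a size of at least 0.1 left 972 exons (17.3%, against 20.4%), with a median of 0.225. Stretches over 5000 bases gave 3586 called exons of 11799 (30.4%), with 95.1% positive, and stretches over 20000 gave 543 of 2352 (23.1%), with 92.4% positive. Exons in exactly 1 event gave 366 (16.3%, against 25.3%). Events with both stretches annotated gave 841 exons, 95.2% positive and a median of 0.118. The share called stayed below that of the table, which counts all events of an exon, under each call rule. The cause of these shifts was not tested, beyond the smaller or larger number of exons. No paired analysis was possible because neither condition has a second library. Depth per library was not used, so what it limits cannot be given.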
